A study of Mus musculus with 9 samples.

Results

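Matrix metalloproteinases are zinc-dependent proteases that cut the proteins of the extracellular matrix, and 10 of their genes were followed in RNA sequencing of mouse knee joints: Mmp2, Mmp3, Mmp8, Mmp11, Mmp12, Mmp13, Mmp14, Mmp16, Mmp19 and Mmp23. They were chosen by symbol among 53379 Ensembl gene IDs, with earlier results of these data known. All 10 had counts in every library and passed the filter on low counts. The libraries came from 3 groups. In the PC2 group, joints were injected with a lentivirus expressing PC2 after transection of the anterior cruciate ligament (ACLT), an operation that destabilises the knee and serves as a model of osteoarthritis. In the Luc group, joints had the same operation and a lentivirus expressing Luc. In the Non surgery group, joints had no operation. Male C57BL/6 mice were operated at 8 weeks of age, received virus in the joint cavity after 1 more week, and gave their joints 8 weeks after that injection. The sources used here do not give the age of the Non surgery mice, the number of mice per group or the promoter that drives the viral genes. A group is a single pool of RNA that was sequenced in 3 repeats, so the p-values measure only the technical spread between repeats and none between mice. The Luc and Non surgery groups differ by operation and virus together, and each comparison also sets 1 pool against another, which cannot be told apart from the treatment.

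Members of this family are made as inactive zymogens whose propeptide must be removed, by other proteases outside the cell or by furin-like convertases inside it, and are held in check by the TIMP proteins. They include the collagenases, which can cut the intact triple helix of fibrillar collagen, stromelysins, a gelatinase, an elastase and membrane-bound forms. In joints they take part in growth plate and bone remodelling and in the loss of cartilage matrix in osteoarthritis, where the collagenase Mmp13 is the best-known enzyme acting on type II collagen.

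The libraries held 17835989 to 19004316 counts in genes, and a member had 40 to 23455 counts in a library. Levels are given as CPM, a gene's count scaled to a common library size, on library sizes scaled with TMM factors. A member is said to have risen or fallen where its adjusted p in edgeR's quasi-likelihood test was under 0.05 over all 17478 genes tested. No marker gene of the 11 cell type lists was at 0 in any group, and those lists covered cartilage, bone, marrow, muscle and other tissues of a knee. The labels do not define PC2.

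In operated joints with the control virus, most of the 10 members were higher than in unoperated joints. Against Non surgery, 8 of the 10 members rose in Luc libraries and 1 fell, where 31.1% of all genes tested rose and 27.7% fell (58.8% together). The rises were led by the stromelysin Mmp3, 18.7-fold higher, the collagenase Mmp13, 4.87-fold, and the membrane-bound Mmp14, 4.715-fold. Mmp2, Mmp11 and Mmp23 also rose at least 2-fold, so that 6 members passed that size of rise, which 9.43% of all genes did, and none fell that far, as 6.32% of all genes did. Mmp16 rose 1.99-fold and Mmp19 1.16-fold. Mmp8, the neutrophil collagenase, fell, and the macrophage elastase Mmp12 did not pass. The median log2 fold change of the 10 members was 1.73, beside 0.025 over all genes. Of 5 other tested genes of the family, 3 rose and 2 fell in this comparison, and none rose 2-fold. All 3 Luc libraries lay above all 3 Non surgery libraries in 8 members and below them in 1, as in 33.1% and 29.8% of all genes. In these bulk samples, fewer cells of a type and less RNA per cell cannot be told apart.

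In operated joints with the PC2 virus, 7 of the 10 members fell against the Luc virus and 1 rose, where 18.6% of all genes fell and 16.1% rose (34.7% together). The falls were small in 6 of them, with log2 fold changes between -0.33 and -0.60. Mmp12 was the exception, at 0.29 times its Luc level, and was the only member to fall at least 2-fold, as 350 of all genes (2.0%) did. No member rose that far, as 1.30% of all genes did. Mmp23 was called 1.2-fold higher, a call that ended with DESeq2 (adjusted p = 0.0778) and in 4 of 6 fits that left out a library (adjusted p = 0.0627 to 0.153). Mmp11 and Mmp16 did not pass. The median of the 10 members was -0.36, beside 0.008 over all genes. Of 5 other tested genes of the family, 1 fell and 1 rose in this comparison. The PC2 libraries lay below the Luc libraries without overlap in 7 members and above them in 1, as in 24.7% and 23.3% of all genes. Of all genes tested, 86.7% to 94.2% had a higher log2 fold change than each of the 6 members with small falls, and 99.4% had a higher one than Mmp12.

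Set against unoperated joints, PC2 joints still had more of most members. In PC2 against Non surgery, 7 members rose and 3 fell (31.5% and 31.2% of all genes, 62.7% together), and all 7 rises and 2 of the 3 falls reached 2-fold (9.83% and 6.53% of all genes). Mmp3 was 14.5-fold and Mmp13 3.865-fold higher, and Mmp8 and Mmp12 were at 0.499 and 0.26 times their Non surgery levels. Mmp19 fell to 0.763 times. The median log2 fold change was 1.56, beside 0.01 over all genes. The libraries did not overlap in any member, with 7 higher and 3 lower in PC2, as in 33.5% and 32.5% of all genes. The 3 comparisons share groups with each other, so their values are not independent. With library size alone as the scale, the median of all genes shifted to 0.185 in Luc against Non surgery and to 0.168 in PC2 against Non surgery. On that scale 7754 genes were called higher and 3304 lower in Luc against Non surgery, instead of 5431 and 4848, and 7607 higher and 3761 lower in PC2 against Non surgery, instead of 5505 and 5447. The members that rose and fell stayed at 8 and 1 in the first of these comparisons and at 7 and 3 in the second.

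**Figure D1:**
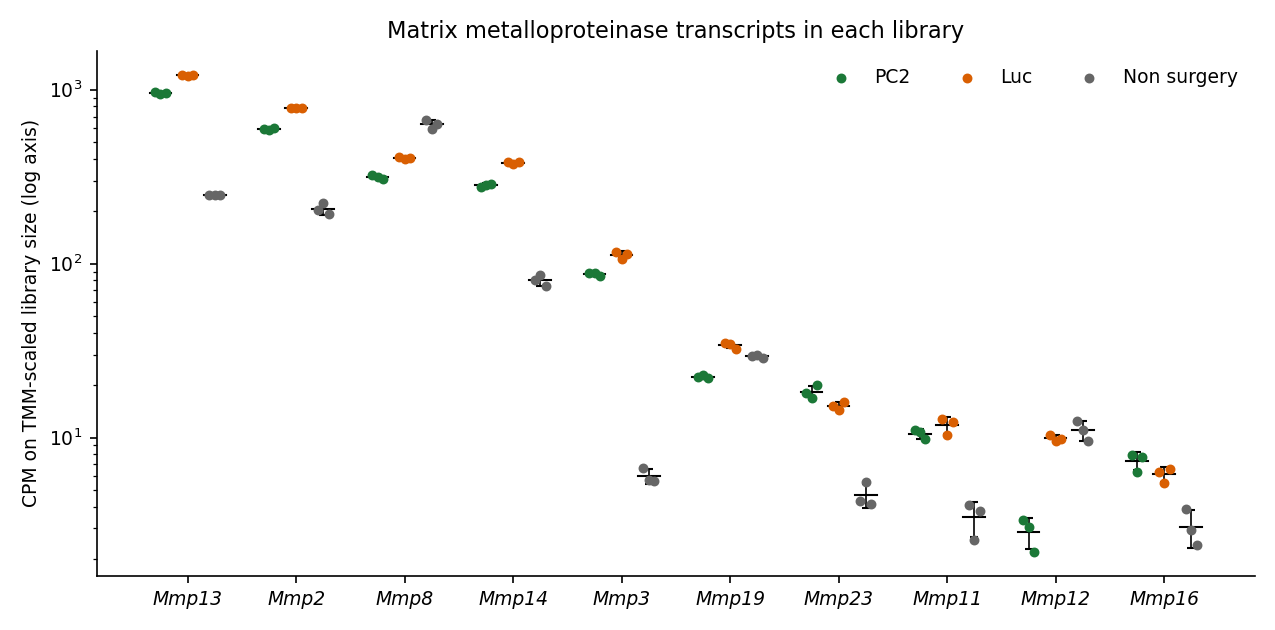
CPM of each member in each of the 9 libraries, on a log axis, with the mean and SD of 3 libraries per group as black lines, for PC2, Luc and Non surgery libraries. Mmp13 is the highest member in PC2 and Luc libraries (956.2 and 1206 CPM on average), Mmp8 in Non surgery libraries (630.9 CPM).

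The collagenases Mmp13 and Mmp8 moved apart in Luc against Non surgery, while both fell in PC2 against Luc. Mmp13, or collagenase 3, is the main interstitial collagenase of rodents and is made by hypertrophic chondrocytes and osteoblasts. It had 968, 944 and 957 CPM in the 3 PC2 libraries, 1219, 1193 and 1205 CPM in the Luc libraries, and 248, 246 and 248 CPM in the Non surgery libraries. The 3 groups did not overlap, and Luc libraries were the highest. Its log2 fold change was -0.33 ± 0.026 (SE) in PC2 against Luc (adjusted p = 5.12e-08) and 2.29 ± 0.027 in Luc against Non surgery (adjusted p = 4.55e-19). Mmp8, or neutrophil collagenase, is stored in the granules of maturing neutrophils, which the marrow of a whole joint holds in number. It had 321, 315 and 307 CPM in PC2, 409, 399 and 406 CPM in Luc, and 668, 590.2 and 634 CPM in Non surgery libraries. Here the order was different, with Non surgery libraries the highest and PC2 the lowest, again without overlap. Mmp8 fell by 0.36 ± 0.04 on the log2 scale in PC2 against Luc (adjusted p = 3.11e-06) and by 0.64 ± 0.04 in Luc against Non surgery (adjusted p = 4.36e-10).

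Marker genes of the cells known to make these collagenases did not all move with them in PC2 against Luc. In Luc against Non surgery, where Mmp13 rose, all 8 chondrocyte, 4 hypertrophic and 7 osteoblast and osteocyte markers rose too (31.1% of all genes). The 8 chondrocyte markers all rose in PC2 against Luc, as did the 4 markers of hypertrophic chondrocytes (16.1% of all genes rose). The summed level of the hypertrophic markers was 798.7 to 819 CPM in PC2, 657 to 669.9 CPM in Luc and 99.2 to 113 CPM in Non surgery libraries. Per 100 CPM of these hypertrophic markers, Mmp13 had 118 ± 0.045 CPM in PC2, 182 ± 1.57 in Luc and 232 ± 16 in Non surgery libraries (SD, n = 3 each). Per 100 CPM of the 8 chondrocyte markers, of which Col2a1 and Comp make up most, it had 13.7 ± 0.276 CPM in PC2, 27.1 ± 0.48 in Luc and 33 ± 2.16 in Non surgery libraries. In both ratios Mmp13 was lowest in PC2 libraries and highest in Non surgery libraries. Of 7 osteoblast and osteocyte markers, 3 rose and 3 fell in PC2 against Luc (16.1% and 18.6% of all genes). Bglap, Alpl and Sp7, of osteoblasts, rose, and Dmp1, Phex and Sost, of osteocytes, fell. Most of their sum is Ibsp, with 1283 ± 2.5 CPM in PC2, 1343 ± 17.6 in Luc and 429 ± 11.2 in Non surgery libraries. Against this sum the order was another one. Mmp13 had 49.9 ± 0.807 CPM per 100 CPM in PC2, 62.2 ± 0.36 in Luc and 39.6 ± 0.942 in Non surgery libraries.

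Of the 8 neutrophil markers, 6 rose and 1 fell in PC2 against Luc (16.1% and 18.6% of all genes). In Luc against Non surgery, 7 of these markers fell and 1 rose (27.7% and 31.1% of all genes). Their summed level was 11150 to 11370 CPM in PC2, 10260 to 10840 CPM in Luc and 12490 to 12890 CPM in Non surgery libraries. Mmp8 per 100 CPM of neutrophil markers was 2.8 ± 0.0754 CPM in PC2, 3.87 ± 0.163 in Luc and 4.96 ± 0.371 in Non surgery libraries. The ratio thus differed between groups in the same order as Mmp8 itself. These ratios do not depend on the scaling of libraries; they were chosen after the values were seen and carry no test, and the part of cell numbers in the results was not tested.

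**Figure D2:**
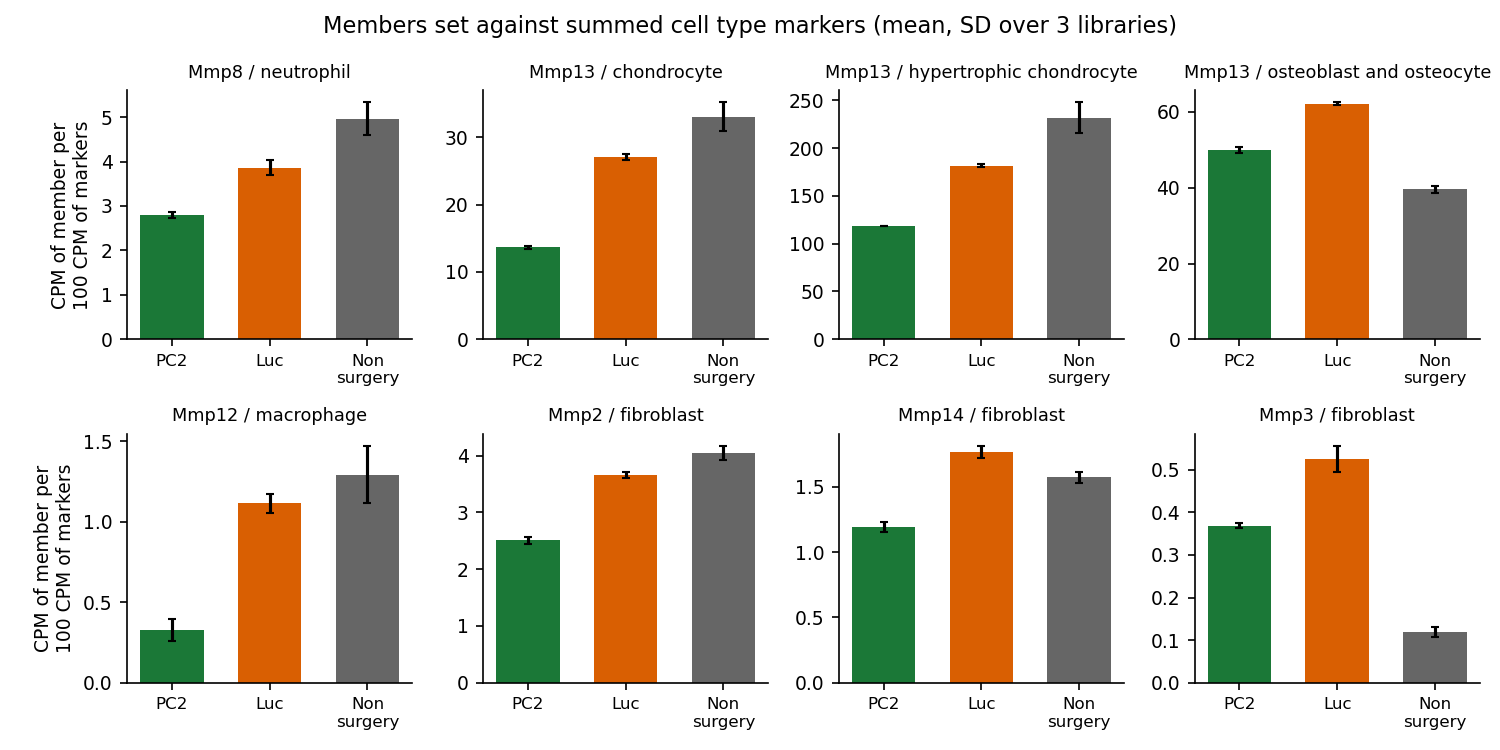
CPM of a member per 100 CPM of the summed markers of a cell type, in PC2, Luc and Non surgery libraries, with coloured bars for the mean and lines for the SD of 3 libraries. Mmp13 per 100 CPM of hypertrophic chondrocyte markers is 118 in PC2, 182 in Luc and 232 in Non surgery libraries, and the 3 ratios to fibroblast markers are lower in PC2 than in Luc libraries.

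The stromelysin Mmp3 cuts proteoglycans and several collagens, activates the zymogens of other members and is a known product of stimulated synovial fibroblasts. It had 88.3, 88.5 and 84.9 CPM in PC2, 117, 106.5 and 114 CPM in Luc, and 6.71, 5.69 and 5.65 CPM in Non surgery libraries. Unoperated joints were thus far below both operated groups, and the PC2 libraries all lay below the Luc libraries. In Luc against Non surgery only 0.12% of all genes had a higher log2 fold change than that of Mmp3, 4.22 ± 0.064 (adjusted p = 8e-18). In PC2 against Luc it fell by 0.37 ± 0.047 (adjusted p = 1.7e-05). Mmp11, stromelysin 3, has weak activity on matrix proteins and is unusual among secreted members in being activated inside the cell by furin. It had 11.1, 10.7 and 9.76 CPM in PC2, 12.8, 10.3 and 12.3 CPM in Luc, and 4.08, 2.59 and 3.785 CPM in Non surgery libraries. The operated groups overlapped with each other and not with the unoperated group. Mmp11 rose 3.39-fold in Luc against Non surgery (adjusted p = 1.52e-08), and its log2 fold change in PC2 against Luc was -0.16 ± 0.118 (adjusted p = 0.307).

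Mmp12, the macrophage elastase, showed a pattern of its own. It had 3.35, 3.04 and 2.2 CPM in PC2, 10.4, 9.57 and 9.75 CPM in Luc, and 12.5, 11.1 and 9.55 CPM in Non surgery libraries. Luc and Non surgery libraries overlapped and the PC2 libraries lay below both. The counts behind this were 42 to 64 reads per PC2 library. Its log2 fold change was -1.79 ± 0.145 in PC2 against Luc (adjusted p = 1.03e-07), -1.94 ± 0.145 in PC2 against Non surgery (adjusted p = 4.73e-09) and -0.16 ± 0.12 in Luc against Non surgery (adjusted p = 0.282), a difference that was not called and was 0.0044 with library size alone as the scale (adjusted p = 0.978). The 8 macrophage markers moved little as a sum. It was 873.9 to 879 CPM in PC2, 882 to 900.4 CPM in Luc and 844 to 868 CPM in Non surgery libraries. Of these markers, 2 rose and 3 fell in PC2 against Luc (16.1% and 18.6% of all genes). In Luc against Non surgery, 3 rose and 2 fell (31.1% and 27.7% of all genes). Cd163 had 24.8 ± 1.11 CPM in PC2, 25.3 ± 2.18 in Luc and 87.15 ± 3.125 in Non surgery libraries. Csf1r had 227 ± 3.74 CPM in PC2, 244 ± 5.82 in Luc and 135 ± 3.51 in Non surgery libraries. Mmp12 per 100 CPM of these markers was 0.327 ± 0.067 CPM in PC2, 1.11 ± 0.06 in Luc and 1.29 ± 0.178 in Non surgery libraries. Eosinophil markers also fell in the PC2 libraries. All 6 fell in PC2 against Luc (18.6% of all genes). The summed level of these eosinophil markers was 70.4 to 75.4 CPM in PC2, 1116 to 1227 CPM in Luc and 467 to 501.5 CPM in Non surgery libraries. Their part in the result for Mmp12 was not tested.

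Mmp2 and Mmp14 followed Mmp13 closely. Mmp14, the membrane-type 1 enzyme, cuts fibrillar collagen at the cell surface and, with Timp2 as a bridge, activates the zymogen of Mmp2, or gelatinase A, which cuts denatured collagen. Mmp2 had 591.5, 584 and 604 CPM in PC2, 786, 784 and 786 CPM in Luc, and 204, 223 and 192 CPM in Non surgery libraries. Mmp14 had 274, 282.5 and 288 CPM in PC2, 382, 372 and 383 CPM in Luc, and 80.4, 86.3 and 74.5 CPM in Non surgery libraries. In both genes the groups did not overlap, Luc libraries were the highest and Non surgery libraries the lowest. Mmp2 fell by 0.4 ± 0.042 on the log2 scale in PC2 against Luc (adjusted p = 1.51e-06) and rose by 1.93 ± 0.043 in Luc against Non surgery (adjusted p = 6.68e-16). Mmp14 fell by 0.43 ± 0.043 in PC2 against Luc (adjusted p = 1.1e-06) and rose by 2.24 ± 0.046 in Luc against Non surgery (adjusted p = 2.18e-16). Timp2 rose 1.62 on the log2 scale in Luc against Non surgery and fell by 0.22 in PC2 against Luc. All 8 fibroblast markers rose in Luc against Non surgery (31.1% of all genes). In PC2 against Luc, 5 fell and 2 rose (18.6% and 16.1% of all genes), with a median log2 fold change of -0.13. Their summed level was 23470 to 23740 CPM in PC2, 21080 to 21630 CPM in Luc and 4841 to 5322 CPM in Non surgery libraries. This sum is mostly Col1a1 and Col3a1, and was higher in PC2 than in Luc libraries although most of the markers fell. Per 100 CPM of fibroblast markers, Mmp2 had 2.51 ± 0.059 CPM in PC2, 3.66 ± 0.055 in Luc and 4.04 ± 0.127 in Non surgery libraries. By the same measure Mmp14 had 1.19 ± 0.037 CPM in PC2, 1.77 ± 0.046 in Luc and 1.57 ± 0.043 in Non surgery libraries, and Mmp3 had 0.369 ± 0.0062 CPM in PC2, 0.525 ± 0.031 in Luc and 0.118 ± 0.012 in Non surgery libraries. Relative to the sum of these markers, Mmp3 was higher in both operated groups than in Non surgery libraries. Mmp2 was lower in both, and Mmp14 was higher in Luc and lower in PC2 libraries.

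Other tissues of the joint moved as well. Beside the counts below, 31.1% of all genes rose and 27.7% fell in Luc against Non surgery. In PC2 against Luc, 16.1% of all genes rose and 18.6% fell. All 9 skeletal muscle markers fell in Luc against Non surgery, with a summed level of 29090 to 29190 CPM in PC2, 25190 to 25590 CPM in Luc and 63750 to 65900 CPM in Non surgery libraries, so that operated and unoperated samples differed in their muscle RNA where Mmp3, Mmp13, Mmp14 and Mmp2 rose. The 5 endothelial markers all rose in Luc against Non surgery and all fell in PC2 against Luc, with 312 to 321 CPM in PC2, 399 to 409 CPM in Luc and 298 to 314 CPM in Non surgery libraries. Of 7 osteoclast markers, 6 rose and 1 fell in Luc against Non surgery and 3 fell in PC2 against Luc, with 1213 to 1245 CPM in PC2, 1380 to 1410 CPM in Luc and 481 to 498 CPM in Non surgery libraries. The 5 adipocyte markers all rose in PC2 against Luc, with 419 to 427 CPM in PC2, 255 to 281 CPM in Luc and 305 to 320.2 CPM in Non surgery libraries. The part of these tissues in the results for the members was not tested.

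The remaining members were low. Mmp16, the membrane-type 3 enzyme, had 7.91, 6.34 and 7.76 CPM in PC2, 6.34, 5.445 and 6.63 CPM in Luc, and 3.9, 2.93 and 2.4 CPM in Non surgery libraries. It rose by 0.99 ± 0.17 on the log2 scale in Luc against Non surgery (adjusted p = 8.82e-05), and PC2 and Luc libraries overlapped, with 0.26 ± 0.145 (adjusted p = 0.188). Mmp23 lacks the hemopexin domain of most members and is anchored in the membrane by its own propeptide. It had 18.1, 16.8 and 19.9 CPM in PC2, 15.1, 14.4 and 16 CPM in Luc, and 4.32, 5.52 and 4.145 CPM in Non surgery libraries. It was the 1 member called higher in PC2 than in Luc libraries, by 0.27 ± 0.091 on the log2 scale (adjusted p = 0.0313). This is the call that ended when PC2 replicate 1 or 3 was left out (adjusted p = 0.0627 and 0.153 in edgeR), when Luc replicate 1 or 2 was left out (adjusted p = 0.0805 and 0.107), and with DESeq2 on all libraries (adjusted p = 0.0778). In Luc against Non surgery Mmp23 rose 3.24-fold (adjusted p = 1.1e-09). Mmp19, a secreted member that cuts basement membrane proteins, had 22.3, 22.8 and 22 CPM in PC2, 35, 34.5 and 32.4 CPM in Luc, and 29.4, 29.85 and 28.7 CPM in Non surgery libraries. It was the 1 member with PC2 libraries below, and Luc libraries above, the Non surgery libraries in both tests. Its log2 fold change was -0.6 ± 0.055 in PC2 against Luc (adjusted p = 3.6e-07), 0.21 ± 0.054 in Luc against Non surgery (adjusted p = 0.00303) and -0.39 ± 0.056 in PC2 against Non surgery (adjusted p = 1.31e-05). In Mmp19, 28.3% of exon bases are shared with genes on the other strand, Tmem198b and Gm47093. The strand setting is not given, so it is not known whether reads there were counted or set aside as ambiguous. The share was 5.58% for Mmp11, 2.17% for Mmp12 and 0 for the other members.

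**Figure D3:**
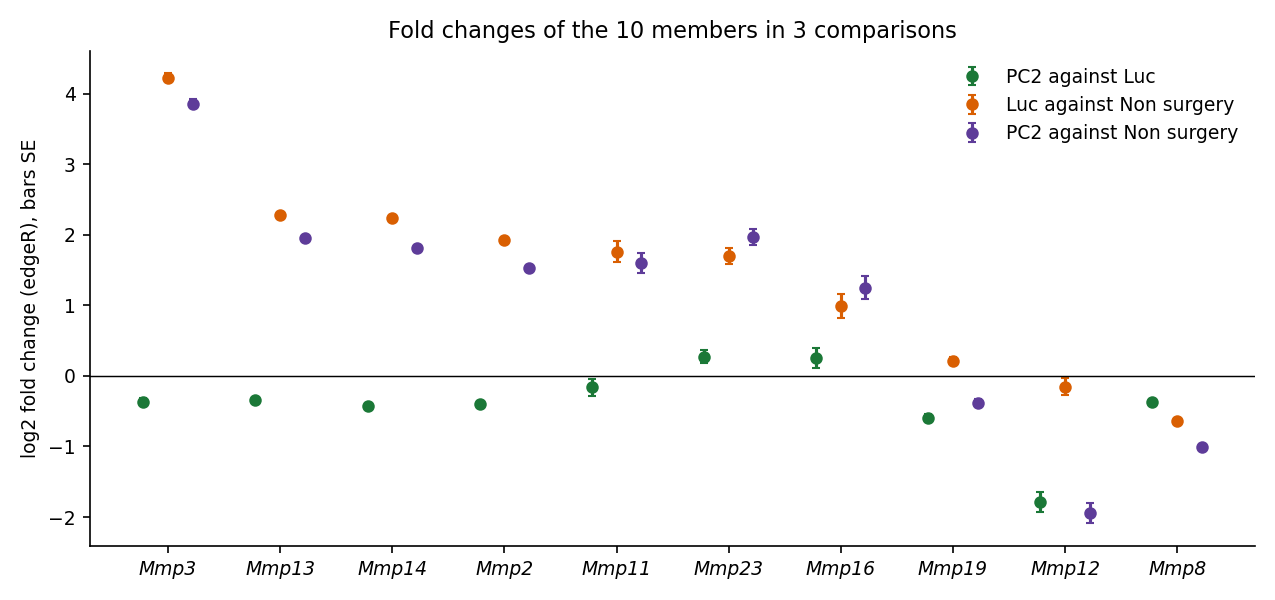
Log2 fold change of each member in PC2 against Luc, Luc against Non surgery and PC2 against Non surgery, with the SE of the edgeR fit, ordered by the size in Luc against Non surgery. The values of PC2 against Luc lie between -1.79 for Mmp12 and 0.27 for Mmp23, and those of Luc against Non surgery between -0.64 for Mmp8 and 4.22 for Mmp3.

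To compare levels between genes, CPM were divided by the length of the merged exons in kilobases. On this scale the 10 members summed to 778 ± 6.31 CPM per kb in PC2, 999 ± 11.9 in Luc and 444 ± 14 in Non surgery libraries (SD, n = 3 each). Mmp8 was the most abundant transcript per length in Non surgery libraries, with 58.5% ± 2.02 of the summed level. It made up 16.7% ± 0.359 in PC2 and 16.7% ± 0.028 in Luc libraries. Mmp13 took the first place in the operated groups, with 46% ± 0.183 in PC2 and 45.1% ± 0.112 in Luc, against 20.9% ± 0.592 in Non surgery libraries. Mmp2 was next, with 22.6% ± 0.357 in PC2, 23.3% ± 0.256 in Luc and 13.8% ± 1.29 in Non surgery libraries. Mmp3 had 6.23% ± 0.159 in PC2, 6.25% ± 0.223 in Luc and 0.751% ± 0.052 in Non surgery libraries. The shares of these 4 members differed by less than 1 percentage point between the PC2 and Luc groups. Mmp12 was the lowest per length in PC2 libraries, with 0.396 ± 0.082 CPM per kb, and Mmp16 in Luc and Non surgery libraries, with 0.708 ± 0.071 and 0.355 ± 0.087 CPM per kb.

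**Figure D4:**
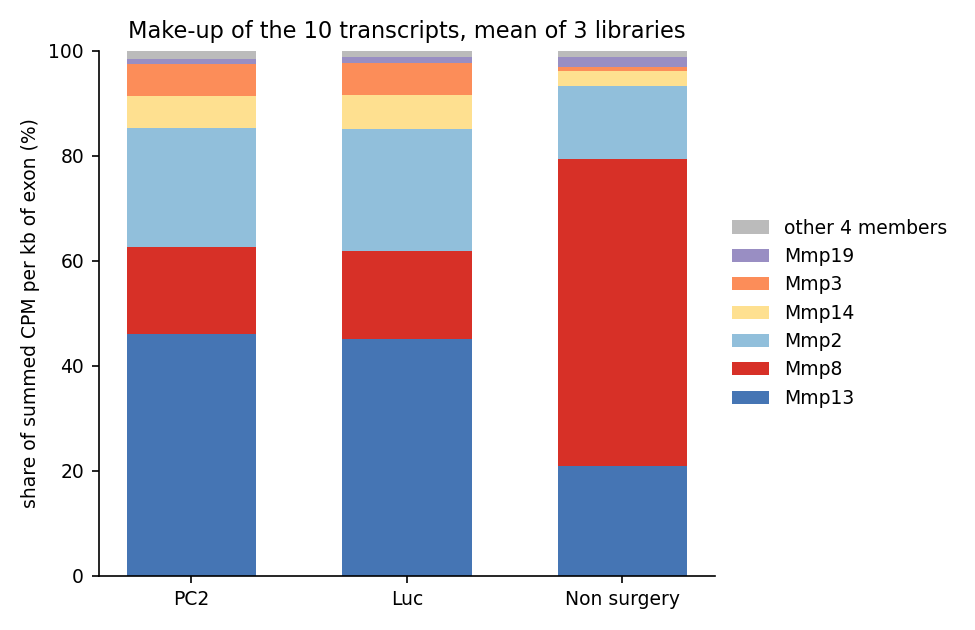
Share of each member in the summed CPM per kilobase of exon of the 10 members, as the mean of 3 libraries, with the 4 members of smallest share joined, in PC2, Luc and Non surgery libraries. Mmp8 holds 58.5% in Non surgery libraries and 16.7% in both operated groups, where Mmp13 holds 46% and 45.1%.

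Of the 10 members, 4 lie in 1 cluster of metalloproteinase genes on chromosome 9, which spans 427 kb with 10 genes of the family. Mmp13 is at chr9:7272514-7283331, Mmp12 at chr9:7344381-7369499, Mmp3 at chr9:7445822-7455975 and Mmp8 at chr9:7558456-7568485 (GENCODE M21, GRCm38). Between Mmp13 and Mmp3, which rose in Luc against Non surgery, lies Mmp12, which did not pass, and Mmp8 and its neighbour Mmp27 fell. In PC2 against Luc, Mmp13, Mmp12, Mmp3 and Mmp8 all fell and Mmp27 did not pass (log2 fold change 0.41 ± 0.27, adjusted p = 0.264). Mmp1a, Mmp10, Mmp1b, Mmp20 and Mmp7 had at most 4 counts in a library and were not tested. Mmp1b, Mmp20 and Mmp7 had 0 counts in all 9 libraries, and a count of 0 allows up to 3 counts, or 0.18 CPM in the smallest library, by counting error alone.

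**Figure D5:**
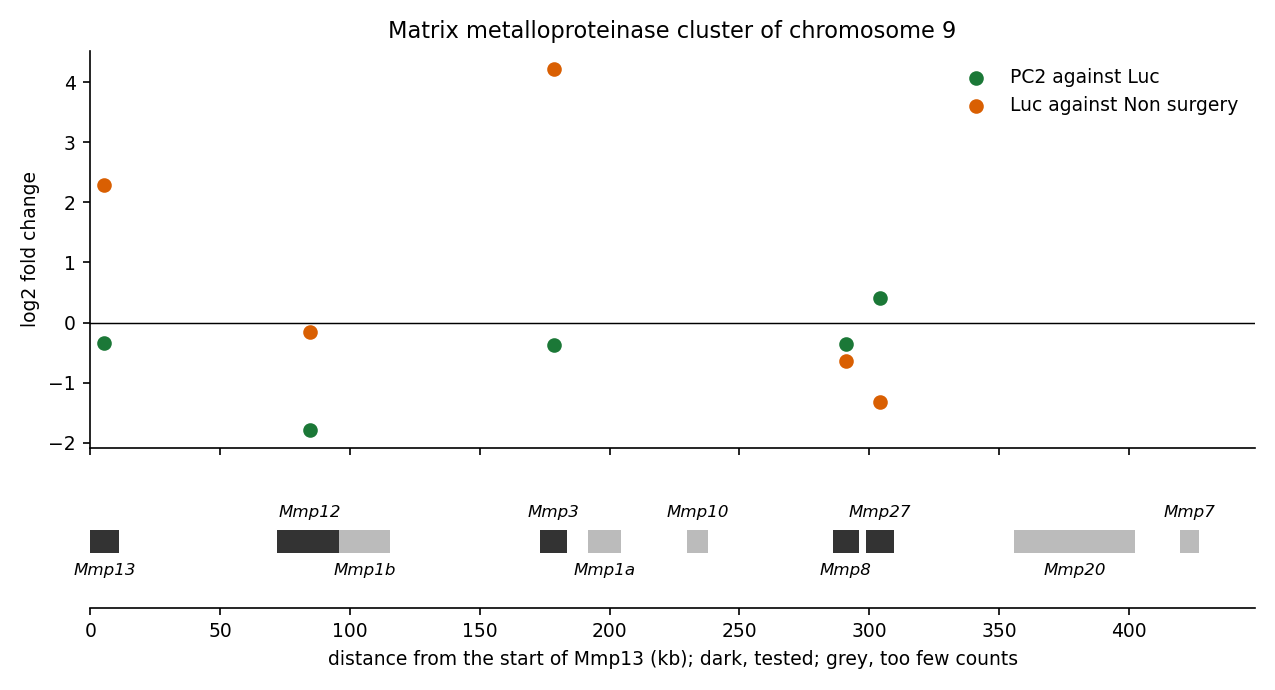
Log2 fold changes of the tested genes of the cluster in PC2 against Luc and Luc against Non surgery, above the positions of its 10 genes as distance from the start of Mmp13 in kilobases, with dark boxes for tested genes and grey boxes for genes with too few counts. Mmp13 and Mmp3 are at 2.29 and 4.22 in Luc against Non surgery, and Mmp12 and Mmp8, between and beside them, at -0.16 and -0.64.

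The promoter windows of these 4 cluster members are shown because the genes stand side by side and differ in response, and because AP-1, the dimer of FOS and JUN proteins, is a textbook regulator of Mmp3 and Mmp13. The sequences are the 200 bases before the annotated start, 5′ to 3′ on the gene's strand, from RefSeq (GRCm38.p6). Capitals mark the AP-1 letters TGAGTCA on either strand, read as TGACTCA where the match is on the other strand. RefSeq gives 2 starts for Mmp12, and both windows are shown. The windows are chr9:7272314-7272513 for Mmp13, chr9:7344197-7344396 and chr9:7347174-7347373 for the starts of Mmp12, chr9:7445622-7445821 for Mmp3 and chr9:7558229-7558428 for Mmp8, all on the plus strand.
Mmp13: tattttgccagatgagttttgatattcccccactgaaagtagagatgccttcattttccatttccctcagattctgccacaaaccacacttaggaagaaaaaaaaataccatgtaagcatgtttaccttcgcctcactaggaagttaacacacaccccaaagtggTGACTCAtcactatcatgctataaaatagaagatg
Mmp12, upstream start: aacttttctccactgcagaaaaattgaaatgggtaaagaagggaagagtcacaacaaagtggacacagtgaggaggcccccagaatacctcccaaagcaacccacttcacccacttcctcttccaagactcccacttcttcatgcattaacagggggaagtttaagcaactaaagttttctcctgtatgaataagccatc
Mmp12, downstream start: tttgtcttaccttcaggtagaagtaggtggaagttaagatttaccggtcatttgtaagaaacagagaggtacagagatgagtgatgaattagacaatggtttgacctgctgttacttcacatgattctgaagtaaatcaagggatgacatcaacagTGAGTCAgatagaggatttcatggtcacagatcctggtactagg
Mmp3: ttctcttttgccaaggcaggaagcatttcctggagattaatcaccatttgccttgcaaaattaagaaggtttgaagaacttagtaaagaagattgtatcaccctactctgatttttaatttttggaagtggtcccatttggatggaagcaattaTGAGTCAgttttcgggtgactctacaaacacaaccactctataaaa
Mmp8: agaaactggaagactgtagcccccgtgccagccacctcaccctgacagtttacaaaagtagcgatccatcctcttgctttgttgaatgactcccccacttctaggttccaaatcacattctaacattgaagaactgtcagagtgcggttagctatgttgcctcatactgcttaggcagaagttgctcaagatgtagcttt

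The AP-1 letters began 35 bases before the start of Mmp13, 46 bases before that of Mmp3 and 44 bases before the downstream start of Mmp12, and were not in the windows of Mmp8 or of the upstream start of Mmp12. Windows were found for 7 of the 10 members, 9 in all. The only window of Mmp11 lies before a RefSeq start 3994 bases from its GENCODE start, and the bases before the GENCODE start were not searched. The AP-1 letters stood in the windows of 3 members and not in those of Mmp11, Mmp14 or Mmp23. Of the 32851 windows of all genes, 3.66% hold these letters. The letters ACCACA, bound by RUNX factors and searched on both strands, stood in the windows of Mmp13, Mmp14 and Mmp23 and in 11.2% of all windows. In the window of Mmp13 they began 118 bases before the start. The letters AGGAAG, bound by ETS factors, stood in the windows of Mmp3, Mmp13 and the upstream start of Mmp12 and in 24.7% of all windows, and TATAAA in those of Mmp3 and Mmp13 and in 9.96% of all windows. No match overlapped another. A match describes the letters and does not show that a factor was bound.

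Of 15 genes of transcription factors known to act on promoters of the family, 14 were tested. In Luc against Non surgery, 11 rose and 2 fell (31.1% and 27.7% of all genes). In PC2 against Luc, 10 fell and 2 rose (18.6% and 16.1% of all genes). The AP-1 subunits Fosb, Fos, Junb and Jun had the largest changes in Luc against Non surgery. Fosb had 207 ± 3.38 CPM in PC2, 551 ± 28.5 in Luc and 2.17 ± 0.341 in Non surgery libraries, and Junb had 177 ± 8.7 CPM in PC2, 323 ± 2.27 in Luc and 41.9 ± 4.01 in Non surgery libraries (SD, n = 3 each). In PC2 against Non surgery, Fosb and Fos were still higher by 6.57 and 4.19 on the log2 scale. Runx2, the osteoblast factor that also acts on Mmp13, rose by 0.98 in Luc against Non surgery and had -0.09 ± 0.05 in PC2 against Luc (adjusted p = 0.185, chosen after its values were seen). The part of these factors in the results for the metalloproteinases was not tested.

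Of 14 genes of ligands and receptors that induce the family, 13 were tested. In Luc against Non surgery, 9 rose and 3 fell (31.1% and 27.7% of all genes). In PC2 against Luc, 5 fell and 2 rose (18.6% and 16.1% of all genes). Osm, a cytokine that acts with interleukin 1 on cartilage, had 15.6 ± 1.1 CPM in PC2, 33.5 ± 1.93 in Luc and 9.36 ± 0.53 in Non surgery libraries. Il1b, which encodes interleukin 1 beta, had 31.8 ± 0.71 CPM in PC2, 65.8 ± 2.84 in Luc and 16.3 ± 1.39 in Non surgery libraries. Both were thus highest in Luc libraries. Il6 was low, with 1.195 ± 0.175 CPM in PC2, 5.45 ± 1.27 in Luc and 0.786 ± 0.169 in Non surgery libraries. It fell by 2.19 on the log2 scale in PC2 against Luc. In PC2 against Non surgery it was not called (0.59 ± 0.308, adjusted p = 0.106), although the PC2 libraries all lay above the Non surgery libraries. Its counts were at most 26 in a PC2 library and 17 in a Non surgery library. Il1a was highest in Non surgery libraries, with 2.7 ± 0.274 CPM in PC2, 1.91 ± 0.235 in Luc and 6.32 ± 1.14 in Non surgery libraries, and fell by 1.73 in Luc against Non surgery, while its 0.5 ± 0.199 in PC2 against Luc did not pass (adjusted p = 0.0628).

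Of 8 genes that activate the zymogens, 6 were tested. All 6 rose in Luc against Non surgery (31.1% of all genes), while 2 fell and 1 rose in PC2 against Luc (18.6% and 16.1%). Plat, the tissue plasminogen activator, had 36.1 ± 0.84 CPM in PC2, 38.7 ± 1.84 in Luc and 7.08 ± 0.94 in Non surgery libraries. Pcsk6, a furin-like convertase, had 193.5 ± 4.47 CPM in PC2, 126 ± 4.42 in Luc and 39.4 ± 2.35 in Non surgery libraries, and was the 1 activator that rose in PC2 against Luc (0.62 ± 0.043, adjusted p = 1.57e-08). Pcsk5, another convertase, and Plaur, the urokinase receptor, fell by 0.27 and 0.31 in the same comparison. Plg and Klkb1, both made mainly in liver, had too few counts to be tested.

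Among 10 genes of inhibitors and clearance receptors, 8 rose and 2 fell in Luc against Non surgery (31.1% and 27.7% of all genes). In PC2 against Luc, 5 fell and 1 rose (18.6% and 16.1% of all genes). Timp1 and Timp2, secreted inhibitors, fell by 0.18 and 0.22 in PC2 against Luc. Timp4 was the 1 that rose, by 0.5 ± 0.105, with 9.32 ± 0.985 CPM in PC2, 6.61 ± 0.089 in Luc and 25.7 ± 2.16 in Non surgery libraries.

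The 10 members and a list of 12 other genes do not make up the whole family, and the rest is not reported here. Of these 12 other genes, 7 had too few counts and 5 were tested. Of these, 3 rose and 2 fell in Luc against Non surgery (31.1% and 27.7% of all genes). In PC2 against Luc, 1 rose and 1 fell (16.1% and 18.6% of all genes). Mmp25, a membrane-anchored member known from leukocytes, had 40.8 ± 1.65 CPM in PC2, 60.55 ± 0.439 in Luc and 73.3 ± 2.79 in Non surgery libraries and fell in all 3 comparisons, as Mmp8 did. Mmp28, or epilysin, rose by 0.95 ± 0.13 in Luc against Non surgery, Mmp17 rose by 0.73 ± 0.249, and Mmp27 fell by 1.33 ± 0.253, with 1.41 ± 0.561 CPM in Luc and 3.55 ± 0.05 CPM in Non surgery libraries. None of these last 3 passed in PC2 against Luc.

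The genes with the most similar profiles were sought by the root mean square difference of centred log2 CPM over the 9 libraries, among 11616 genes with a mean of at least 5 CPM. Because the 9 libraries are repeats of 3 pools, likeness here rests on 3 levels per gene. Mmp13 was closest to Lum, the collagen-binding proteoglycan lumican (difference 0.046), to Pamr1 (0.049) and to Col5a2, a chain of type V collagen (0.049). Lum had 911 ± 35.5 CPM in PC2, 1137 ± 15.2 in Luc and 227 ± 11.7 in Non surgery libraries. Of the members themselves, Mmp13 and Mmp14 were the most similar pair (0.083), followed by Mmp2 and Mmp14 (0.14) and Mmp2 and Mmp13 (0.194). Mmp3 had no gene as near. Igll1, a part of the surrogate light chain of B cell precursors, Egr1, an immediate-early factor, and Has1, a hyaluronan synthase, came first at 0.34, 0.347 and 0.351. Has1 had 69.1 ± 1.07 CPM in PC2, 62.9 ± 3.19 in Luc and 5.84 ± 0.941 in Non surgery libraries. Mmp12 was closest to Lnpep, an aminopeptidase (0.178), to BC005561 (0.201) and to Apol11a (0.224). Lnpep had 12.95 ± 0.41 CPM in PC2, 45 ± 2.47 in Luc and 55 ± 3.08 in Non surgery libraries, so that it too was low in the PC2 libraries alone.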

How the data were processed

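RNA of 9 knee joint libraries was analysed, 3 per group. The values deposited by the authors are raw read counts per Ensembl gene ID. Per the submitters' processing notes, HISAT2, HTSeq and DESeq2 were used with mm10, with no version stated; annotation, strand setting and read filters are not given in the sources used here. Per the labels' protocols, the NEBNext Ultra RNA kit was used. HTSeq's summary lines were left out of library sizes; reads outside genes were 7.29% to 9.25% and ambiguous reads 5.72% to 6.65% of a library. Symbols and exon lengths came from GENCODE M21, which held 53274 of 53379 IDs.

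All 9 libraries entered 1 fit in edgeR 4.0.16 (R 4.3.3) with a group factor, TMM factors, filterByExpr (minimum count 10) and glmQLFTest, two-sided, with Benjamini-Hochberg adjustment over 17478 genes. SE is the absolute log2 fold change divided by the root of the F statistic. The fit was tested on data simulated with the spread of these libraries, which holds no spread between mice. Repeats of a group differed by more than counting noise (chi-square per degree of freedom 3.94 to 8.67 over genes with at least 20 counts), so none was a copy. All 10 members are described; of each of 5 pathway lists, all members are counted and up to 4 with the largest change among those called are named, except that 1 gene this rule chose is not reported here. Likeness used a pseudocount of 0.5 CPM and names 3 genes each for Mmp3, Mmp12 and Mmp13, leaving out gene models, receptor segments and pseudogenes. The members and lists were chosen with earlier results of these data known. Alternatives were other factors (median of ratios, library size), no filter, DESeq2 1.42.0, a fit of the 2 groups compared, the replicate number as a block, and each library left out.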

Additional observations from a re-analysis of the deposited data

How the results depend on the processing

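Over the 3 comparisons and 10 members, 354 of 360 recomputed log2 fold changes kept their direction and their side of the threshold. Of the others, 5 were those of Mmp23 in PC2 against Luc, given above with their adjusted p, and 1 was that of Mmp12 in Luc against Non surgery, which was not called in either fit and turned to 0.0044 with library size alone, against -0.16 with TMM factors. The count of members called was 9, 8 and 10 in Luc against Non surgery, PC2 against Luc and PC2 against Non surgery, and the same with median-of-ratios factors, library size alone, no filter or only the groups compared; DESeq2 gave 9, 7 and 10. Leaving out each library in turn gave 9 in every case, 7 to 8, and 10 in every case, and over all genes 9552 to 9880, 4921 to 5328 and 10239 to 10672 calls. With the replicate number as a block the counts of members were 9, 8 and 10; the labels do not pair the libraries, and the deviations of same-numbered libraries had correlations of -0.046 to 0.0737 across genes, so the numbers were taken as names only. Depth limits Mmp12 in PC2 libraries, with 42 to 64 counts, and Mmp16 in Non surgery libraries, with 40 to 65. Mmp11 and Mmp23 were also low in Non surgery libraries, with 45 to 68 and 69 to 96 counts. Without replicate mice, no value here speaks of the spread between animals.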

Other observations

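The repeats of a pool were not equally close for all members when set against counting noise. In the PC2 libraries the chi-square per degree of freedom was 3.2 for Mmp8, 3.46 for Mmp2 and 2.71 for Mmp13, and in the Luc libraries it was 1.41 for Mmp8, 0.021 for Mmp2 and 2.7 for Mmp13. The Non surgery libraries had 41.4 for Mmp8 and 20.1 for Mmp2, the highest values over the 10 members and 3 groups, and 0.069 for Mmp13. These are values with no test, chosen after they were seen.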
